A study of Mus musculus with 4 samples.

Results

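The members described here are 43 genes whose transcripts peak in S phase or in G2 and mitosis, measured in single cells from B16-F10 melanoma tumours. They were taken from the gene table by symbol, and each of the 43 symbols matched 1 of the 27998 genes. The S list holds 18 genes of origin licensing and DNA synthesis, and the G2/M list holds 25 genes of mitotic entry, spindle and chromosome segregation. A cell was called cycling when Mki67 and Top2a together gave at least 2 unique molecular identifiers (UMIs, 1 for each captured transcript). By that rule 2256 of 8569 kept cells were cycling. Mki67 and Top2a are G2/M members that made the call, so their difference between cycling and other cells is a description and is not tested; the other 23 G2/M and 18 S genes played no part in it.

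B16-F10 is a melanoma line of C57BL/6 mice, and here its cells were implanted in matrigel into mice of that strain. Libraries S1 and S2 came from tumours labelled Adar1-null and libraries S3 and S4 from control tumours, all taken on day 14. Adar1, encoded by Adar, is an enzyme that edits adenosine to inosine in double-stranded RNA, and the label applies to the implanted tumour cells, while the infiltrating cells are those of the host. After 10 min of digestion at 37 °C with collagenase P and DNase I, leukocytes were enriched by Optiprep density and magnetic selection for CD45 and profiled with 10x 3' v2 chemistry. Whether the 2 libraries of each genotype represent different mice is not in the labels. The p-values between genotypes refer to library-to-library spread, which may be technical. In comparisons within libraries, differences between whole libraries are removed. Those p-values refer to the spread that remains, which may be technical too. The edgeR fits also share information on spread across genes, so their very small p-values do not measure replication among the libraries alone.

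A dividing cell first licenses replication origins by loading the Mcm helicase, fires them with Cdc45 and the GINS complex, and copies its DNA with nucleotides supplied by ribonucleotide reductase, thymidylate synthase and related enzymes. It then builds up the mitotic cyclins that switch on Cdk1, sets up the spindle with kinesins and the Aurora and Polo-like kinases, and separates its chromosomes once the anaphase-promoting complex is active. S phase genes are classically driven by E2F factors, whereas late genes carry CCAAT boxes and the cell cycle genes homology region (CHR) that the DREAM and MuvB complexes bind. In tumours, proliferation of melanoma cells, of CD8 T cells and of some macrophages is a common feature, while recruited monocytes usually do not divide.

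Promoters of 36 members were found in RefSeq (GRCm38.p6, the same assembly as the mm10 build of the files), 15 of the S list and 21 of the G2/M list, each as 250 bases before to 50 bases after the start. Mcm4, Gins2, Ccne2, Ccna2, Kif20a, Tpx2 and Aurkb were not matched. The CCAAT box (CCAAT) stood in 19 of 21 G2/M promoters (90.5%), in 10 of 15 S promoters (66.7%) and in 37.9% of all 27025 promoters. A CHR (TTTGAA or TTTAAA) stood in 19 of 21 G2/M promoters (90.5%), in 6 of 15 S promoters (40%) and in 27.8% of all. Both together were found in 85.7% of G2/M promoters, 26.7% of S promoters and 10.9% of all. An E2F word (TTTCCCGC, TTTCGCGC, TTTGCCGC or TTTGGCGC) occurred in 5 of 15 S promoters (33.3%), in 1 of 21 G2/M promoters, that of Cdk1 (4.76%), and in 2.32% of all. Both strands were searched, TTTAAA reads the same on both, and E2F words of opposite strands may overlap. A match is a description of these letters and not evidence of binding.

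To show the contrast between the lists, the 150 bases that end just before the start are given for 4 G2/M genes and 3 S genes that return in the comparisons, with the matched words in capitals. Ccnb1, Cdc20, Cdk1 and Top2a belong to the G2/M list.
Ccnb1 (chr13:100786487-100786636, minus strand): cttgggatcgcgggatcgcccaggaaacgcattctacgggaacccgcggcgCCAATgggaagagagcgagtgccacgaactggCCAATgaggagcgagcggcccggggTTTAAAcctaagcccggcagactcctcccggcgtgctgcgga
Cdc20 (chr4:118437344-118437493, minus strand): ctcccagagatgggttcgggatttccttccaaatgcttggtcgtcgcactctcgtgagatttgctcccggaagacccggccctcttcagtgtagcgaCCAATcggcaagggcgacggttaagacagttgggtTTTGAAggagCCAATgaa
Cdk1 (chr10:69352913-69353062, minus strand): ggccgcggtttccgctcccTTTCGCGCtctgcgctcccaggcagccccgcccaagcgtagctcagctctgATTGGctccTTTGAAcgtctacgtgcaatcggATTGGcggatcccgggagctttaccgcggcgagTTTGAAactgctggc
Top2a (chr11:99024190-99024339, minus strand): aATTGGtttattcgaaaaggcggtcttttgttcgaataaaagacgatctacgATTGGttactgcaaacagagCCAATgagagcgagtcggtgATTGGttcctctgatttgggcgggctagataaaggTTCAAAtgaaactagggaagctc
Mcm5, Mcm6 and Cdc6 belong to the S list.
Mcm5 (chr8:75109359-75109508, plus strand): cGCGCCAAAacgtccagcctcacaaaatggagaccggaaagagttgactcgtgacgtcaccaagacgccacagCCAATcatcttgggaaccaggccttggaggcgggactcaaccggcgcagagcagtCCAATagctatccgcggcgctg
Mcm6 (chr1:128359706-128359855, minus strand): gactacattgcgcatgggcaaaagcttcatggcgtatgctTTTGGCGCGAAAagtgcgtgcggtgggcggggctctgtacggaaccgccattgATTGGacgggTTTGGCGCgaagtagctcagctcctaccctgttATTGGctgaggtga
Cdc6 (chr11:98908001-98908150, plus strand): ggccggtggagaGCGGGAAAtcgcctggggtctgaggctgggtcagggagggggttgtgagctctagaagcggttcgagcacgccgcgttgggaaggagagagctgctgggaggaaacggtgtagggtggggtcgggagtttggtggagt
All 4 G2/M windows hold CCAAT boxes (ATTGG on the other strand) together with a CHR, which reads TTCAAA on the other strand in Top2a. The Cdk1 window adds an E2F word. The 3 S windows hold E2F words and come from the 5 of 15 S promoters that have one. No CHR lies in these 150 bases, but the 300-base Mcm5 promoter counted above holds 1 outside them. In Mcm6 the word TTTGGCGC overlaps its neighbour GCGCGAAA of the opposite strand.

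Kept cells numbered 1939, 1936, 1945 and 2749 in S1 to S4, with a median of 7618 to 8788 UMIs and no cell under 3961. Pairs of libraries shared 3 to 10 cell barcodes. Cell types were set by marker genes, none of them a member. Cd8a, Cd3e, C1qa, Ly6c2, Foxp3 and Mlana are themselves gate markers, so their percentages in their own gates follow in part from the rule. The CD8 T cell gate held Cd8a UMIs in 98.8% and Cd3e UMIs in 92.2% of its cells. C1qa was found in 96.3% of the C1q macrophage gate and Ly6c2 in 77.9% of the monocyte gate. Foxp3 was found in 48.0% of the regulatory T cell gate. That gate took T cells under the CD8 minimum with at least 1 UMI of Foxp3 or at least 4 of Il2ra, Ikzf2 and Tnfrsf4. It may therefore hold other T cells, which also limits the comparisons made with it. CD45 selection was not complete: 1139 cells carried melanoma markers (Mlana in 100%), and Ptprc, the CD45 gene, was found in 9.4% of them. Of myeloid genes, Lyz2 was found in 88.6% and C1qa in 65.1% of these melanoma cells. S4 differed most in makeup, with C1q macrophages at 59.6% of its cells against 33.8% to 46.7% in the others. Adar itself gave 9.45 and 12.9 CPM (the gene's UMIs over all UMIs of the type in that library, scaled to a common total) in melanoma cells of S1 and S2 against 11.0 and 12.6 in S3 and S4. A 3' tag that may lie outside the disrupted part of the gene checks no label.

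Melanoma cells and CD8 T cells had the highest cycling shares of the 4 large cell types, and monocytes had the lowest. In melanoma cells 84.8%, 81.9%, 89.1% and 84.7% cycled in S1 to S4, 85.0% of 1139 cells in all. In CD8 T cells the shares were 51.1%, 49.5%, 46.4% and 44.6%, or 48.2% of 1058 cells (exact binomial 95% interval 45.2% to 51.3%). In C1q macrophages they were 13.8%, 8.56%, 17.2% and 8.72%, or 11.6% of 3962 cells. S1 and S3 stood above S2 and S4 in the macrophages, across the groups. Among 978 monocytes, which were split from C1q macrophages partly by Ly6c2 (a UMI in 77.9% against 21.6% of cells), 5 cells cycled (0.511%): 0 of 208 in S1, which allows up to 1.44%, 0.286% in S2, 1.92% in S3, and 0 of 212 in S4, which allows up to 1.42%. Intervals and limits cover counting error only.

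Smaller populations followed with fewer cells each. Regulatory T cells cycled at 42.9% of 49 cells in S1, 31.0% of 29 in S2, 46.7% of 30 in S3 and 13.3% of 15 in S4. Natural killer cells cycled at 21.4%, 34.3%, 28.2% and 33.3%, and type 1 conventional dendritic cells at 28.0%, 36.8%, 25.0% and 22.2%. Adar1-null and control libraries overlapped in regulatory T cells and natural killer cells, while in type 1 dendritic cells both Adar1-null shares lay above both control shares. Each of the 3 populations has under 50 cells per library, and their shares were not compared between Adar1-null and control tumours by a test. Type 2 conventional dendritic cells (5 of 172, 2.91%) and migratory dendritic cells (4 of 130, 3.08%) had low shares, and 0 of 42 plasmacytoid dendritic cells did, which allows up to 7.14%.

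Depth differed between types: a melanoma cell had a median of 32505 UMIs, a CD8 T cell 8851, a C1q macrophage 7809 and a monocyte 5269. With each cell thinned to 3900 UMIs, which left out no cell, 38.3% of melanoma cells, 29.2% of CD8 T cells, 30.9% of regulatory T cells, 22.0% of natural killer cells, 14.8% of type 1 dendritic cells and 5.0% of C1q macrophages were called. The difference between CD8 T cells and all monocytes and macrophages (9.41% cycling) was 40.2, 43.8, 32.1 and 36.9 percentage points in S1 to S4, a mean of 38.3 ± 4.98 (SD, n = 4, with the same sign in 4 of 4 libraries, which gives the smallest p that an exact two-sided sign-flip test over 4 libraries allows). Melanoma cells exceeded monocytes and macrophages by 75.5 ± 1.39 points, again in 4 of 4 libraries. At 3900 UMIs per cell these gaps were smaller but kept their sign in 4 of 4 libraries, at 24.7 ± 3.44 points for CD8 T cells and 34.1 ± 2.62 for melanoma cells, with 4.07% of monocytes and macrophages called. Regulatory T cells were 14.4 points under CD8 T cells on average, with differences of -8.20, -18.5, 0.223 and -31.3 points, and S3 went the other way (p = 0.25, exact sign-flip test). Without S4 the mean was -8.82 points, and most of the gap was gone at equal depth: after thinning the differences were 7.16, -8.34, 11.5 and -18.3 points, a mean of -1.99 (exact sign-flip p = 0.875). In CD8 T cells, 14.2% of cells had exactly 1 UMI of Mki67 and Top2a together, just under the threshold, and 6.90% had exactly 2. In C1q macrophages these were 8.68% and 2.52%, and in monocytes 3.58% had exactly 1.

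**Figure D1:**
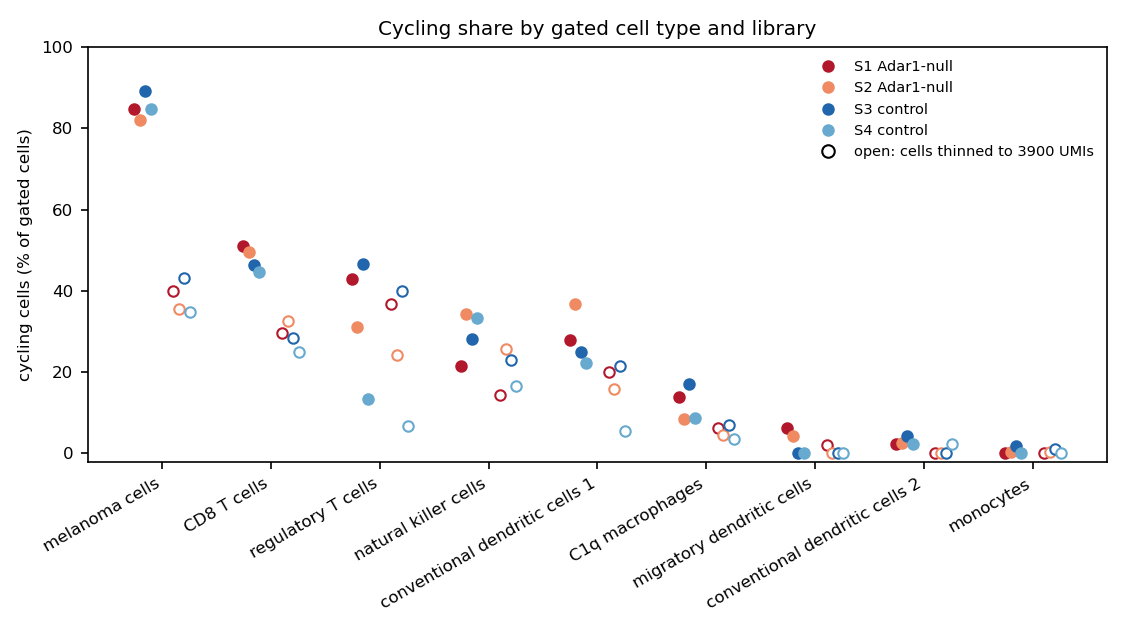
Cycling cells as a percent of gated cells (vertical axis) for each gated cell type (horizontal axis), 1 point for each library. Melanoma cells sit between 81.9% and 89.1%, CD8 T cells between 44.6% and 51.1%, C1q macrophages between 8.56% and 17.2% and monocytes at 1.92% or less.

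Levels of the members were compared between cell types. UMIs were summed per library and type, and types were compared within libraries with edgeR's quasi-likelihood test, adjusted over all genes tested (adjusted p at most 0.05, here called). A summed level does not tell more cycling cells from more transcript per cell. All 43 members were higher in CD8 T cells than in monocytes and macrophages, where 34.4% of all genes tested were called higher and 36.2% lower (70.7% in either direction). Log2 differences are after TMM scaling, which assumes that most genes do not differ; with scaling to total counts only, chosen after seeing the data, all 43 were called higher too, beside 41.1% of all genes higher and 31% lower. The median log2 change was 1.55 over the S list and 1.91 over the G2/M list.

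Among the S genes, Dut, which clears dUTP from the nucleotide pool, stood at 740.5, 697.3, 724.1 and 685.1 CPM in CD8 T cells of S1 to S4 against 57.96, 45.56, 56.68 and 45.05 in monocytes and macrophages. The ranges lie far apart, and the log2 difference was 3.64 ± 0.09 (SE; edgeR, adjusted p = 7.06e-11). Rrm2, the regulatory subunit of ribonucleotide reductase, gave 143.8, 128.7, 148.2 and 119.5 CPM against 30.26, 21.80, 33.69 and 20.04 (log2 difference 2.21 ± 0.11). Tyms, thymidylate synthase, differed by 2.21 ± 0.12, the Mcm helicase subunit Mcm6 by 1.75 ± 0.10 and Uhrf1, which brings maintenance methylation to replicated DNA, by 1.78 ± 0.12. The smallest log2 difference was that of the sliding clamp Pcna, 0.43 ± 0.12 (adjusted p = 0.00715).

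Among the G2/M genes, the centromeric histone Cenpa gave 479, 434.6, 463.3 and 460.6 CPM in CD8 T cells against 104.9, 66.97, 96.89 and 73.30 in monocytes and macrophages, a log2 difference of 2.28 ± 0.11 (edgeR, adjusted p = 6.80e-09). Ccnb2, a B-type cyclin, gave 184.3, 177.8, 185.7 and 153.4 CPM against 36.03, 20.77, 37.70 and 30.83 (2.34 ± 0.13). In both genes S1 and S3 were the higher libraries of the monocytes and macrophages. The microtubule-binding Nusap1 (log2 difference 2.62 ± 0.17), the anaphase activator Cdc20 (2.22 ± 0.15), the spindle motor Kif11 (2.18 ± 0.16) and the chromosomal passenger genes Cdca8 (1.91 ± 0.13) and Aurkb (1.70 ± 0.13) were higher in the T cells too. Of 52 other cell cycle genes, 44 were higher and 3 lower in CD8 T cells, with the higher ones including the chromatin protein Hmgb2 (2.71), the replication protein Rpa2 (2.66), the pocket protein Rbl2 (2.52), Cks2 (1.93), the DNA ligase Lig1 (1.87) and Cdk6 (1.5).

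**Figure D2:**
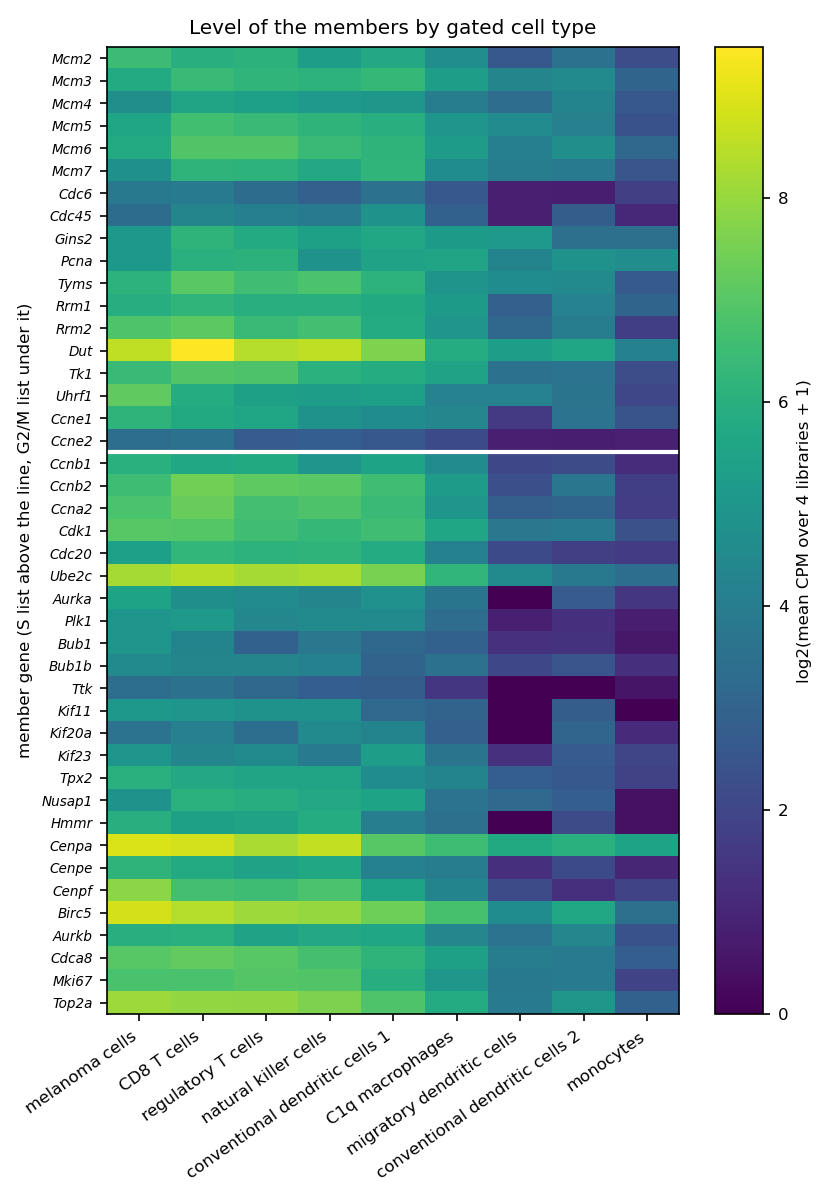
Level of each of the 43 members (rows, S list above the line and G2/M list under it) by gated cell type (columns), with the log2 of the mean CPM over 4 libraries plus 1 shown by colour. Dut stands at 685.1 to 740.5 CPM in CD8 T cells, 48.09 to 64.62 CPM in C1q macrophages and 12.20 to 21.03 CPM in monocytes.

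Between the T cell gates, 4 of 43 members were lower in regulatory T cells than in CD8 T cells and 0 were higher, where 7.05% of all genes tested were called lower and 7.9% higher (4.15% and 9.94% with total-count scaling, under which 2 members, Dut and Cenpa, kept the call). The members' median log2 difference was -0.29, against -0.06 over all genes. Dut was at 399.2, 430.7, 348.4 and 200.7 CPM in regulatory T cells of S1 to S4, under every CD8 T cell library (log2 difference -1.12 ± 0.12; edgeR, adjusted p = 1.69e-08). Cenpa was at 385.3, 263, 394.3 and 180.6 CPM (-0.65 ± 0.13, adjusted p = 0.000481), again under every CD8 T cell library. Ccna2, cyclin A2, was at 153.5, 99.75, 126.3 and 20.07 CPM against 154, 154.8, 177.2 and 135.6 (-0.59 ± 0.19, adjusted p = 0.0356). Cdk1, the mitotic kinase, was at 103.3, 99.75, 111 and 60.22 CPM against 137.9, 107.6, 136.7 and 121.6 (-0.49 ± 0.17, adjusted p = 0.0467). S4, with 15 regulatory T cells, was lowest in all 4 genes.

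The proliferation marker Mki67 gave 150.8, 127, 103.4 and 100.4 CPM in regulatory T cells against 118.2, 107.6, 113.5 and 91.79 in CD8 T cells (log2 difference 0.05 ± 0.16), and the topoisomerase gene Top2a differed by -0.10 ± 0.19. Neither passed the test. The count of 4 was 10 with no filter on low counts, 2 with DESeq2 and 2 without S2 or without S4. Of 50 other cell cycle genes tested, 5 were higher and 7 lower in regulatory T cells. Higher were the D-type cyclins Ccnd1 (3.0 ± 0.39) and Ccnd2 (1.35 ± 0.12) and the CDK inhibitor Cdkn1a (0.99 ± 0.15), and lower were Cks1b (-0.63 ± 0.13), Cdk4 (-0.59 ± 0.13) and the tubulin Tuba1b (-0.56).

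Melanoma cells had 35 members higher and 2 lower than monocytes and macrophages, where 42.4% of all genes were called higher and 41% lower. Scaling weighs on this comparison: with total counts only, the median log2 difference of all genes moved from 0.03 to 0.61, 58.1% of all genes were called higher and 28.4% lower, and 41 members were higher and 1 lower. The G2/M genes had a median log2 difference of 1.45 and 24 of 25 were called higher, and the S genes had a median of 0.48 with 11 higher and 2 lower of 18; with total counts only the medians were 2.03 and 1.07. Uhrf1 gave 143.8, 131.8, 143.1 and 155.4 CPM against 18.72, 14.15, 16.29 and 11.83 (log2 difference 2.67 ± 0.12; edgeR, adjusted p = 9.92e-09). Dut gave 392.1, 366.6, 361.7 and 381.4 CPM (2.29 ± 0.09), a range between those of the CD8 T cells and of monocytes and macrophages. The helicase subunit Mcm2 (1.54 ± 0.08), the kinetochore gene Cenpf (3.25 ± 0.29), the centromeric Cenpa (1.97 ± 0.11), the spindle gene Hmmr (2.2 ± 0.20) and the survivin gene Birc5 (1.85 ± 0.16) were higher as well.

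Pcna went the other way, at 34.64, 30.30, 33.35 and 30.41 CPM in melanoma cells against 45.01, 34.13, 46.91 and 42.40 (log2 difference -0.97 ± 0.09; edgeR, adjusted p = 1.52e-06). Its CPM ranges overlap narrowly, but it was lower in melanoma cells of all 4 libraries and kept its call with total counts only (-0.38). The GINS subunit Gins2 was lower after TMM scaling (-0.53 ± 0.12) and not with total counts only (0.06), at 31.49, 30.20, 31.94 and 35.03 CPM against 38.34, 25.83, 34.81 and 26.37. Of the 9 origin licensing genes, 3 were higher (33.3%) and 1 lower (11.1%), beside 42.4% and 41.0% of all genes. Among 51 other cell cycle genes tested, 35 were higher and 5 lower in melanoma cells, with Cdk2 (3.39), the mitotic transcription factor Foxm1 (3.22), Cks1b (2.60) and the histone H2afz (1.54) higher, and the retinoblastoma gene Rb1 (-2.52) and Cdk6 (-1.54) lower.

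Within CD8 T cells, cycling cells were then compared with all other cells of the same library. Of 41 members outside the call, 40 were higher in cycling cells and 0 lower, where 15.1% of all genes were called higher and 14.4% lower (17.6% and 11.2% with total-count scaling). The median log2 change was 1.09 over the S list (17 of 18 called) and 3.0 over the 23 tested G2/M genes (23 called). Cycling cells were deeper, with medians of 10223 to 12234.5 UMIs against 6296 to 7680.5. After thinning to 3900 UMIs, 32 of 36 members tested were called, with a median of 1.40.

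Of the cyclins and their kinase, Ccna2 gave 229.7, 232.9, 274.9 and 223.5 CPM in cycling CD8 T cells of S1 to S4 and 24.56, 23.35, 38.49 and 21.82 in the other CD8 T cells (log2 change 3.10 ± 0.12; edgeR, adjusted p = 3.52e-72). Cdk1 gave 202.8, 162.6, 222.7 and 200.1 CPM against 26.70, 15.01, 14.80 and 19.92 (3.31 ± 0.13). Every cycling library lay above every other-cell library in both genes. Among the spindle genes, Nusap1 gave 102.4, 90.70, 113.5 and 115.1 CPM against 10.68, 5.84, 5.92 and 6.64 (3.80 ± 0.19). The Polo-like kinase Plk1 (3.80 ± 0.26), the kinetochore gene Cenpf (3.58 ± 0.15), the Aurora kinase of the passenger complex Aurkb (3.05 ± 0.17), the spindle assembly factor Tpx2 (2.61 ± 0.18), the passenger subunit Cdca8 (2.11 ± 0.11) and Cdc20 (1.99 ± 0.14) followed. The 6 spindle genes had a median of 3.22, the 5 mitotic kinase and checkpoint genes 3.37 and the 2 anaphase-promoting complex genes 2.22.

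The S genes had smaller changes. Rrm2 gave 212.8, 181.9, 228.3 and 194.2 CPM in cycling CD8 T cells against 25.63, 39.19, 34.54 and 22.77 (log2 change 2.66 ± 0.12; edgeR, adjusted p = 1.23e-58), Tyms rose by 1.63 ± 0.10 and the thymidine kinase Tk1 by 1.51 ± 0.11. The 9 origin licensing genes had a median of 0.73. Mcm6, a subunit of the replicative helicase, did not pass the test after TMM scaling (it passed with total counts only): it gave 148.5, 123.9, 139.2 and 107.0 CPM in cycling cells and 117.5, 140.9, 80.93 and 87.29 in the others, and S2 was lower in the cycling cells (0.21 ± 0.10, adjusted p = 0.0987). Mki67 itself, which made the call, was at 176.6, 164.1, 183.8 and 153.2 CPM against 18.15, 12.51, 13.82 and 12.33, and Top2a at 385.1, 385.6, 419 and 400.1 against 22.42, 18.35, 23.69 and 22.77. Of 49 other cell cycle genes tested, 40 were higher and 2, the D-type cyclins Ccnd2 (-0.77) and Ccnd3 (-0.38), were lower. Higher were Prc1 (3.04), the histones H2afx (2.41) and H2afz (0.85), the tubulins Tuba1b (1.89) and Tubb5 (1.68) and Cks2 (1.86).

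Several lymphocyte genes were lower in the cycling CD8 T cells. Of 7 inhibitory receptor genes tested, 6 were lower and 0 higher, of 11 effector genes 5 were lower and 0 higher, and of 6 naive and memory genes 3 were lower and 0 higher. The chemokine Ccl5 gave 2033, 3852, 3028 and 2600 CPM in cycling cells against 4131, 8522, 7005 and 5175 in the others (log2 change -1.15 ± 0.04; edgeR, adjusted p = 7.04e-75). The inhibitory receptor Lag3 gave 154.2, 200.2, 222 and 197.9 CPM against 273.4, 391.1, 368.1 and 377.6 (-0.92 ± 0.07), and the granule protein Nkg7 gave 2342, 2762, 2967 and 2196 against 3030, 3947, 3762 and 2932 (-0.47 ± 0.04). Each was lower in the cycling cells of all 4 libraries. The other genes called lower were Klf2 (-0.63), Il7r (-0.96), Tcf7 (-1.02), Gzmk (-0.56), Gzmf (-1.13), Prf1 (-0.37), Pdcd1 (-0.36), Havcr2 (-0.53), Tnfrsf9 (-0.28), Ctla4 (-0.36) and Tox (-0.25).

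Ccl5, Nkg7 and Lag3 kept their calls in every alternative run for this comparison. Total-count scaling ended those of Prf1 and Tox, thinning those of Il7r, Gzmk, Prf1, Havcr2, Tnfrsf9, Ctla4 and Tox, DESeq2 those of Il7r, Tcf7, Prf1, Havcr2, Ctla4 and Tox, and a fit without the library as a block those of Klf2, Tcf7, Gzmk, Gzmf, Prf1, Pdcd1, Havcr2, Tnfrsf9 and Tox. UMIs of the myeloid gene Lyz2 were found in 51.2% of CD8 T cells, and whether they came from free RNA was not tested. Of the monocyte genes tested, 3 of 3 were lower in cycling CD8 T cells, with a median log2 change of -0.97. Of 6 macrophage genes 3 were lower, with a median of -0.51 over the 6. Medians over the lymphocyte lists were -0.36 for inhibitory receptor, -0.49 for effector and -0.63 for naive and memory genes. The part of the monocyte and macrophage genes in the result was not tested. Melanoma markers summed to 57.4, 39.7, 33.4 and 50.6 CPM in cycling and 66.2, 40.9, 44.4 and 37.0 CPM in other CD8 T cells.

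**Figure D3:**
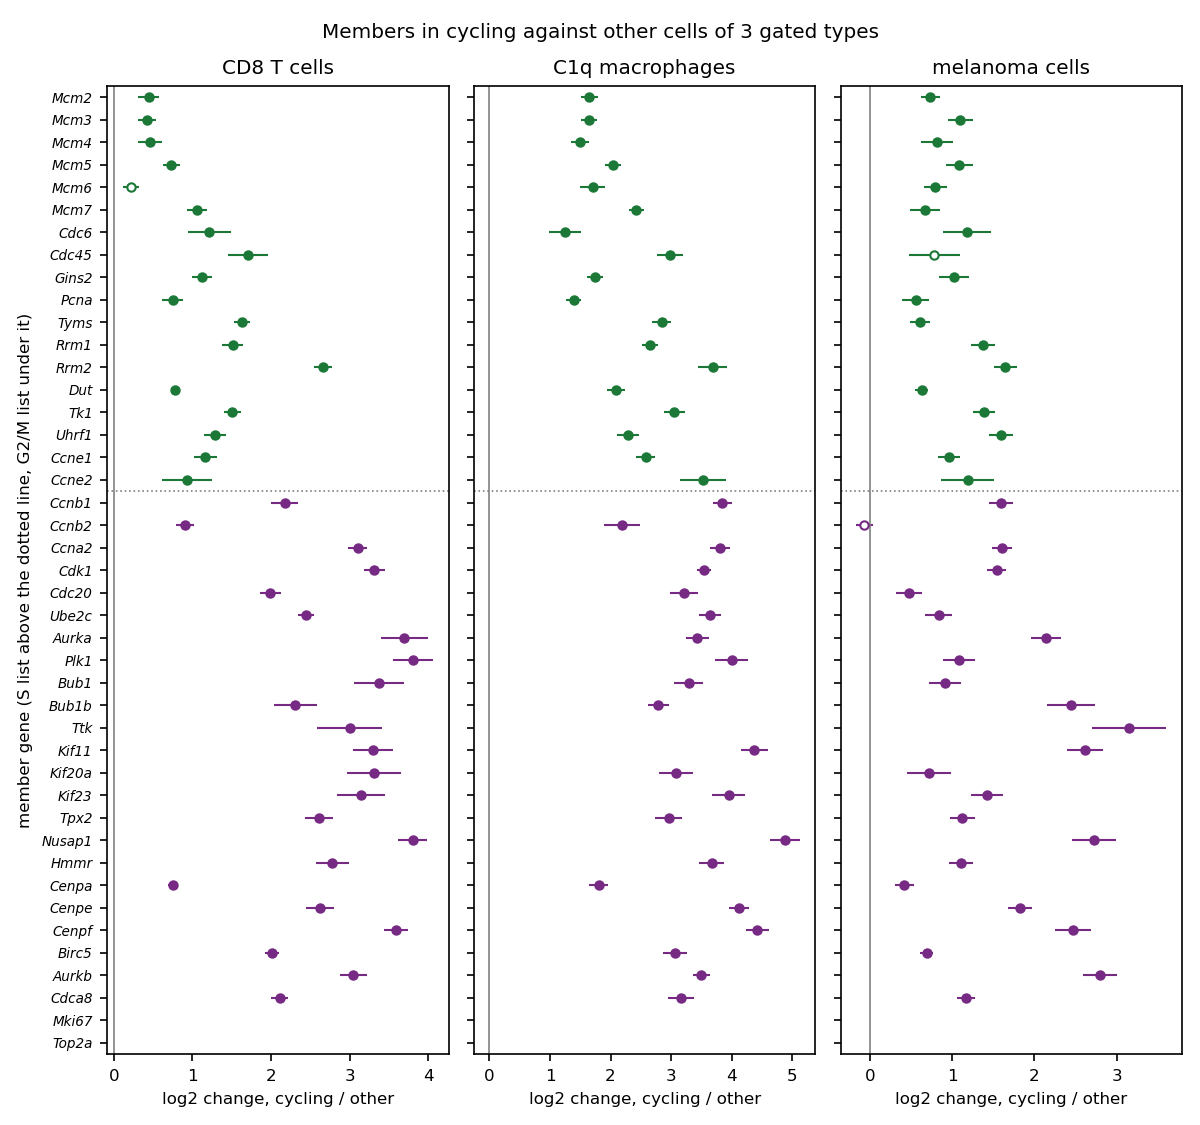
Log2 change of each member (rows, S list above the dotted line and G2/M list under it) between cycling and other cells of CD8 T cells, C1q macrophages and melanoma cells, with the standard error as a bar; the panels have different horizontal scales. The G2/M medians are 3.0, 3.52 and 1.43 in the 3 types, and the S medians are 1.09, 2.19 and 0.99.

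In C1q macrophages the members separated cycling from other cells too. All 40 tested members outside the call were higher (Ttk was not tested), where 14.5% of all genes were called higher and 15% lower (20.6% and 8.92% with total-count scaling). The median log2 change was 2.19 over the S list and 3.52 over the G2/M list. Cycling macrophages had medians of 12262 to 14592.5 UMIs against 7163 to 8129 in the others, and after thinning 37 of 38 tested members were called, with a median of 2.73. Whether the lists differ from those in CD8 T cells was not tested.

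Cdk1 gave 203.8, 138.6, 203.5 and 180.9 CPM in cycling C1q macrophages and 21.36, 10.70, 13.18 and 13.32 in the others (log2 change 3.54 ± 0.11; edgeR, adjusted p = 3.11e-15). Cyclin B1, Ccnb1, gave 87.26, 73.68, 111.3 and 90.22 CPM against 8.13, 5.85, 6.88 and 3.75 (3.85 ± 0.16). S2 was lowest among the cycling libraries in both, and no cycling library overlapped the others. The kinetochore motor Cenpe gave 63.79, 53.70, 77.09 and 59.53 CPM against 4.35, 3.03, 4.44 and 2.17 (4.12 ± 0.16), and Aurkb 72.59, 71.19, 89.81 and 74.41 against 7.18, 6.26, 6.30 and 5.58 (3.50 ± 0.14). Nusap1 (4.88 ± 0.25), Cenpf (4.43 ± 0.19), Kif11 (4.38 ± 0.23), Hmmr (3.67 ± 0.20), the Aurora kinase Aurka (3.43 ± 0.19) and the checkpoint kinase Bub1b (2.79 ± 0.18) rose with them. Among the S genes, the G1/S cyclin Ccne1 gave 53.53, 111.2, 48.48 and 48.37 CPM against 9.64, 15.54, 10.60 and 4.83 (2.58 ± 0.16), with S2 highest in both. Rrm1 rose by 2.65 ± 0.13 and Mcm7 by 2.42 ± 0.12.

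Of 51 other cell cycle genes tested in C1q macrophages, 42 were higher and 0 lower in cycling cells, among them Prc1 (4.60), H2afx (2.67), the INK4 family inhibitor Cdkn2c (2.66), Lig1 (2.34), Hmgb2 (2.27) and H2afz (1.27).

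Monocyte and antigen-presentation genes were lower in the cycling macrophages. All 7 monocyte genes and all 5 MHC class II genes were lower, and of 12 macrophage genes 7 were lower and 1 higher. The monocyte surface gene Ly6c2 gave 22.73, 48.71, 16.69 and 6.51 CPM in cycling cells against 114.7, 295.7, 80.51 and 24.90 (log2 change -2.46 ± 0.12; edgeR, adjusted p = 2.99e-12). Chil3 (-2.29), Ccr2 (-1.85), Vcan (-1.58), F13a1 (-1.54) and Plac8 (-1.21) followed. The lipid carrier Apoe gave 1407, 359.7, 1719 and 6838 CPM against 3828, 1533, 5252 and 23060 (-1.83 ± 0.09), with S4 far above the rest in both. Folr2 (-1.16), Adgre1 (-0.31), Ms4a7 (-0.29) and Trem2 (-0.27) were lower, and the adhesion molecule Vcam1 was higher (0.44 ± 0.11). The MHC class II chain H2-Aa gave 1917, 1369, 2350 and 812.9 CPM against 3256, 3694, 3293 and 1269 (-0.95 ± 0.17), and H2-Ab1 (-1.01), H2-Eb1 (-0.99), Ciita (-0.92) and Cd74 (-0.91) were lower in the same way.

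Of the genes on these lists, the macrophage gate itself used Ly6c2, Chil3, Plac8, Ccr2, Ms4a7, Adgre1, Mrc1, C1qa, C1qb and C1qc. The same UMI rules were applied to cycling cells, which were deeper, and to other cells. None of the named monocyte, macrophage and MHC class II genes was called without the library as a block. Leaving out S4 ended the calls of H2-Eb1, H2-Aa, Cd74 and H2-Ab1, thinning ended those of Adgre1, Vcam1 and Ciita, and total-count scaling those of Adgre1, Trem2 and Ms4a7. Melanoma markers summed to 107.8, 113.6, 79.5 and 87.4 CPM in cycling and 120, 121.9, 104 and 109 CPM in other C1q macrophages, and doublet removal took out 108 cells in all, 43.5% of them cycling.

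In melanoma cells, where few cells were not called cycling, 39 of 41 members were higher in cycling cells and 0 lower, where 10.5% of all genes were called higher and 12.3% lower (15.6% and 8.91% with total-count scaling). The median log2 change was 0.99 over the S list and 1.43 over the G2/M list. Cdk1 gave 143.8, 153.3, 130.4 and 128.4 CPM in cycling cells and 50.70, 63.14, 31.17 and 32.92 in the others (1.54 ± 0.12; edgeR, adjusted p = 3.70e-11), so that the other melanoma cells still lay above the other CD8 T cells in each library. Aurkb gave 71.16, 72.35, 73.88 and 59.33 CPM against 14.86, 12.79, 6.49 and 2.47 (2.80 ± 0.21). Both were higher in the cycling cells of all 4 libraries. Nusap1 (2.72 ± 0.27), Kif11 (2.61 ± 0.22), Aurka (2.14 ± 0.18), Cenpe (1.83 ± 0.15), Rrm2 (1.65 ± 0.14), Ccna2 (1.61 ± 0.12), Ccnb1 (1.59 ± 0.15), Rrm1 (1.38 ± 0.15), Tk1 (1.38 ± 0.13) and Cdca8 (1.17 ± 0.11) rose.

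Cdc45 (0.78 ± 0.31) and Ccnb2 (-0.06 ± 0.10) did not pass. After thinning to 3900 UMIs, where both the call and the sums change, 12 of 36 tested members were called with a median of 0.24, and the calls of Cdca8, Rrm2, Nusap1 and Rrm1 ended. Of 51 other cell cycle genes tested, 36 were higher, with Prc1 (4.25), Gmnn (1.45), E2f1 (1.29), Hmgb2 (1.25), Cks2 (1.21) and Cdkn2d (1.18) among them, and Ccnd2 (-0.46) and Cdkn1a (-0.57) were lower.

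Summed over each list, S and G2/M transcripts of cycling cells stood in different ratios in the libraries. In cycling CD8 T cells the S genes summed to 2471, 2414, 2547 and 2301 CPM and the G2/M genes to 3373, 3214, 3722 and 3551, a G2/M to S ratio of 1.33 to 1.54. In cycling C1q macrophages the S genes summed to 1353, 1629, 1290 and 1392 CPM and the G2/M genes to 2255, 1690, 2535 and 2242, with ratios of 1.67, 1.04, 1.96 and 1.61. S2 was the low library, with the highest S and the lowest G2/M sum. In cycling melanoma cells the ratios were 1.84, 2.15, 1.96 and 1.85. The G2/M sums and counts, here and in the cells without a call below, cover 23 genes. They leave out Mki67 and Top2a, which made the call, and the ratios were not tested between types.

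CD8 T cells without a call still held S transcripts, at 1242, 1263, 1103 and 1160 CPM, against 353, 288, 298 and 211 CPM in C1q macrophages without a call. Their G2/M genes summed to 993, 897, 925 and 641 CPM against 353, 227, 221 and 175. In every library the T cells lay above the macrophages. At 3900 UMIs per cell, 34.3% of the CD8 T cells without a call held at least 5 S UMIs and 21.0% held at least 5 G2/M UMIs, against 3.2% and 3.4% of such C1q macrophages, while 83.7% and 80.6% of cycling CD8 T cells did.

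**Figure D4:**
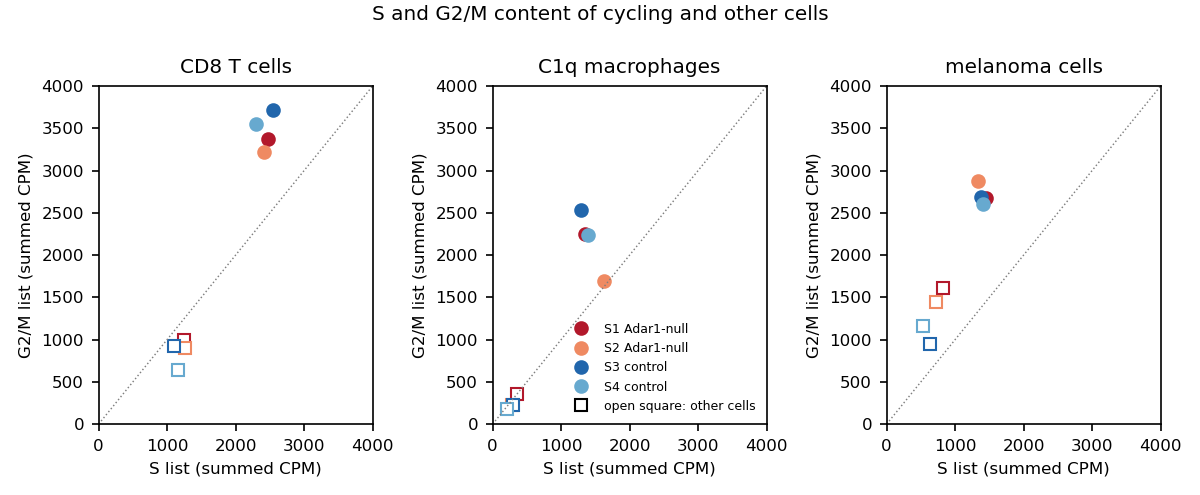
Summed CPM of the S list (horizontal axis) and of the G2/M list without Mki67 and Top2a (vertical axis). Points are cycling and other cells of 3 gated types, 1 for each library and class. Cycling CD8 T cells lie at 2301 to 2547 CPM of S genes, and CD8 T cells without a call lie at 1103 to 1263.

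The series compared Adar1-null with control tumours, and cycling shares were set side by side with an exact test, which with 2 against 2 libraries cannot give a p under 0.333. In CD8 T cells the share was 50.3% ± 1.09 (SD, n = 2) in Adar1-null and 45.5% ± 1.27 in control tumours, a difference of 4.74 points with no overlap (exact permutation test, two-sided, p = 0.333). Counting cells with at least 1 UMI of Mki67 and Top2a as cycling gave 64.4%, 61.4%, 62.3% and 61.2% in S1 to S4, a difference of 1.17 points, and the groups then overlapped (exact p = 0.667). In melanoma cells it was 83.3% ± 2.01 against 86.9% ± 3.12 (p = 0.667 in the same exact test). In C1q macrophages it was 11.2% ± 3.71 against 12.9% ± 5.97 (exact p = 0.667), and over all monocytes and macrophages 8.26% ± 3.66 against 11.0% ± 4.67 (exact p = 0.667). In monocytes it was 0.143% against 0.962% (exact p = 1). After thinning, S1 to S4 gave 29.6%, 32.5%, 28.5% and 25.0% in CD8 T cells, again without overlap, 6.18%, 4.43%, 6.93% and 3.60% in C1q macrophages and 39.9%, 35.5%, 43.1% and 34.7% in melanoma cells, where the groups overlap.

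No member was called between Adar1-null and control tumours in CD8 T cells, monocytes, C1q macrophages or melanoma cells, by edgeR or by DESeq2. In CD8 T cells 0.0113% of all genes were called. At an unadjusted p under 0.05 there were 2 of 43 members, Ttk (log2 change -0.82 ± 0.30) and Mcm6 (0.28 ± 0.12), against 5.65% of all genes. S genes had a median log2 change of 0.12 with 11 of 18 above 0, and G2/M genes -0.06 with 7 of 25 above 0, beside a median of 0.00 over all genes. Of the 43 members, 8 were higher in both Adar1-null libraries than in both control libraries (22.4% of all genes were) and 3 lower (13.4%). The 8 higher ones are all among the 18 S genes, and 0 of 25 G2/M genes were higher.

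Mcm6 gave 137.1 and 130.3 CPM in Adar1-null and 115.1 and 98.41 CPM in control CD8 T cells. The helicase subunit Mcm5 gave 100.8 and 109.1 against 93.88 and 85.59 CPM, Mcm4 51.99 and 47.56 against 42.86 and 36.80, and Rrm1, the large subunit of ribonucleotide reductase, 79.57 and 78.96 against 69.80 and 63.68. Groups did not overlap in these 4 genes, which are named here after their values were seen. Genes higher in both Adar1-null libraries were 18.6% of all members, near the 22.4% of all genes, but 44.4% of the S list. This split by list was not tested. The genes with the most UMIs overlapped between groups: Dut (740.5, 697.3, 724.1 and 685.1 CPM in S1 to S4, log2 change -0.01 ± 0.11), Cenpa (479, 434.6, 463.3 and 460.6, -0.06 ± 0.11) and the ubiquitin-conjugating enzyme of the anaphase-promoting complex Ube2c (334.8, 353.4, 369 and 330.4, -0.06 ± 0.11). Birc5 (0.03 ± 0.11), Top2a (-0.02 ± 0.11), Ccnb2 (0.05 ± 0.12) and Mki67 (118.2, 107.6, 113.5 and 91.79 CPM, 0.10 ± 0.13) did not pass either.

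In C1q macrophages 0 of 43 members were called and 0 had an unadjusted p under 0.05 with edgeR, beside 0% and 4.44% of all genes. The S genes had a median log2 change of 0.14 with 15 of 18 above 0, and the G2/M genes -0.25 with 4 of 25 above 0. Of all 10694 genes tested, 5339 were above 0. The spread between libraries of a group was wide: Birc5 gave 120.7, 80.11, 139.3 and 77.05 CPM (log2 change -0.10 ± 0.35), Top2a 59.06, 44.14, 80.76 and 41.24 (-0.24 ± 0.35) and Cdk1 58.76, 28.50, 63.60 and 38.77 (-0.22 ± 0.42). S1 and S3 were the higher library of their group in each. The same was seen in Ube2c (94.97, 42.75, 106.1 and 53.53 CPM, -0.20 ± 0.49), Cenpa (115.1, 70.72, 103.8 and 77.33, 0.04 ± 0.28), Dut (64.62, 53.87, 62.23 and 48.09, 0.11 ± 0.19) and Mki67 (37.87, 20.33, 38.64 and 29.52, -0.22 ± 0.33). Of the 43, Mcm2 and Cdc45 alone did not overlap between groups (4.65%), against 34.9% of all genes in either direction. Both were higher in Adar1-null, where 16.7% of all genes were, and 0 members were lower, where 18.2% of all genes were.

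Monocytes held too few member UMIs for most genes, and 9 of 43 members passed the filter on low counts. Of these 0 were called and 0 had an unadjusted p under 0.05 with edgeR, beside 0% and 3.96% of all genes. Cenpa gave 45.47, 55.90, 44.13 and 29.73 CPM in S1 to S4 (log2 change 0.45 ± 0.25) and Dut 19.24, 21.03, 14.44 and 12.20 (0.58 ± 0.32). Both were higher in both Adar1-null libraries, as was Mcm3, where 17.1% of all genes were. Pcna (27.10, 21.03, 28.88 and 18.30 CPM, -0.01 ± 0.31), Gins2 (-0.07 ± 0.47), Birc5 (-0.88 ± 0.54), Ube2c (-0.01 ± 0.46) and Top2a (0.21 ± 0.67) overlapped between groups. Mki67, at 2.29 to 3.50 CPM, was not tested.

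In melanoma cells, the cells that carry the genotype, 33 of 43 members had estimates above 0, as did 5541 of all 11260 genes tested. No member was called, beside 0.00888% of all genes. At an unadjusted p under 0.05 there were 8 members, against 5.05% of all genes, and the smallest adjusted p was 0.342. Cdc6, which loads the Mcm helicase, gave 11.07 and 10.61 CPM in Adar1-null and 16.03 and 15.05 in control tumours (log2 change -0.52 ± 0.14). Cdk1 gave 133 and 141.1 against 121.4 and 116 CPM (0.20 ± 0.06), Ccnb1 60.35 and 78.90 against 55.62 and 57.49 (0.29 ± 0.11) and Mki67 110.2 and 114.3 against 98.99 and 99.73 (0.17 ± 0.06). The groups did not overlap in these 4 genes. The other 4 were Cdc20 (0.30 ± 0.10), the checkpoint kinase Bub1 (-0.29 ± 0.11), Hmmr (0.17 ± 0.08) and Ube2c (0.13 ± 0.06); apart from Ube2c and Mki67, these 8 are named after their values were seen.

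Of the 43 members, 16 were higher in both Adar1-null libraries of melanoma cells than in both control libraries, where 18.1% of all genes were, and 3 were lower, where 15.2% were. Of the 16, 13 are G2/M genes, 13 of the 25 on that list. G2/M genes had a median log2 change of 0.10 and S genes 0.02. Levels of the genes with the most UMIs were close in all 4 libraries: Cenpa gave 498.6, 494.2, 484.8 and 503.1 CPM (0.00 ± 0.06), Birc5 481.3, 470.8, 470.1 and 464.8 (0.02 ± 0.06) and Dut 392.1, 366.6, 361.7 and 381.4 (0.02 ± 0.06). Top2a (-0.01 ± 0.10) and Cenpf (0.08 ± 0.21) overlapped between groups. The cycling share of melanoma cells pointed the other way, 3.57 points lower in Adar1-null.

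**Figure D5:**
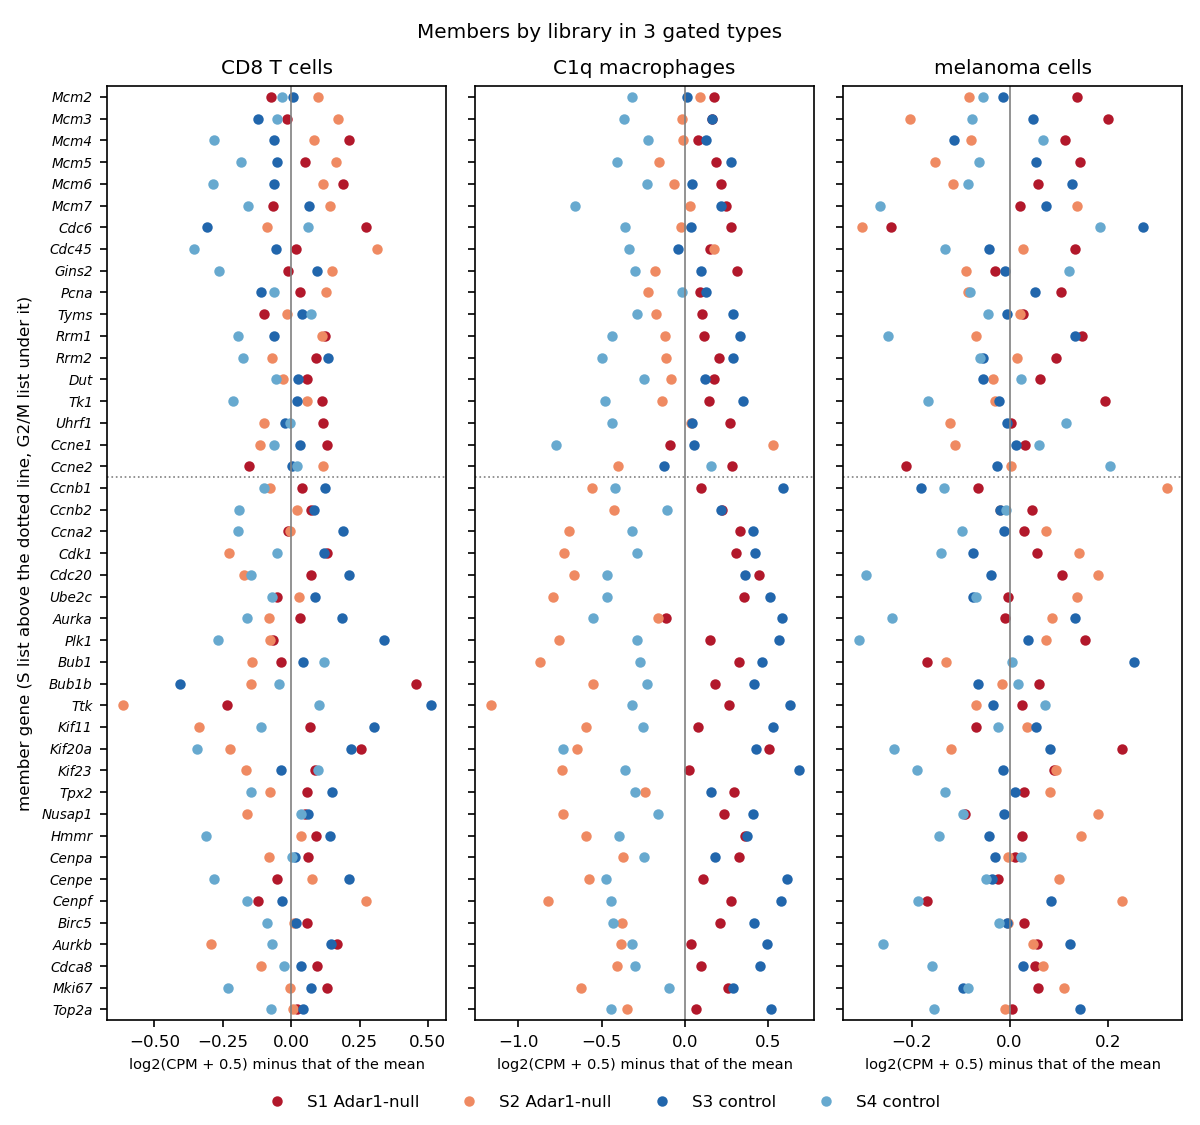
Each member (rows, S list above the dotted line and G2/M list under it) in S1 to S4, as the log2 CPM of the library minus the log2 of the mean CPM of the 4 libraries, in 3 gated types; the panels have different horizontal scales. In C1q macrophages S1 and S3 lie to the right for most G2/M genes, such as Cdk1 at 58.76 and 63.60 CPM against 28.50 and 38.77 in S2 and S4.

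The change between groups in CD8 T cells was also set against that in monocytes and macrophages in 1 model. Of 43 members 0 were called with edgeR and 0 had an unadjusted p under 0.05, beside 0% and 5.3% of all genes, and DESeq2 called 0 as well. Estimates of the difference were above 0 for 34 of 43 members, with a median of 0.26 on the log2 scale, 0.06 over the S list and 0.31 over the G2/M list. Of all 11142 genes tested, 5467 had estimates above 0. In monocytes and macrophages together 0 members were called between groups, and the median log2 change was 0.04 over the S list and -0.37 over the G2/M list.

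Melanoma cells gave the largest part of the members' UMIs in every library. They made up 17.6%, 14.6%, 12.8% and 9.75% of kept cells in S1 to S4, 47.1%, 44.9%, 39.0% and 40.5% of cycling cells, and 58.8%, 57.8%, 50.2% and 47.8% of all member UMIs. CD8 T cells gave 17.2%, 21.9%, 16.7% and 13.5% of the UMIs and C1q macrophages 12.9%, 8.08%, 20.1% and 17.0%. C1q macrophages gave a larger part of cycling cells in the control libraries (27.5% and 25.5%) than in the Adar1-null libraries (17.1% and 10.9%), and made up 46.7% and 59.6% of the cells there against 39.2% and 33.8%.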

How the data were processed

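Single-cell 3' messenger RNA was measured in 4 libraries. The authors deposited 1 matrix of whole-number UMI counts for all of them, not normalized. The submitters' processing notes name Cell Ranger, the mm10 build and Seurat 2.2.0. For the Cell Ranger version, the annotation and any earlier cell filter, nothing is given in the sources used here. Barcode names carry the group but no replicate number. The number of columns of per-sample values not used was 0.

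From these counts, cells were kept at 500 or more detected genes and a mitochondrial share of 10% or less, and 108 cells with a Scrublet score above 0.1 (scanpy 1.11.5, expected rate 0.02) were removed as doublets. Cells were typed by summed marker UMIs (for example at least 3 of Cd3d, Cd3e and Cd3g with at least 2 of Cd8a and Cd8b1 for CD8 T cells, and at least 20 for monocytes and macrophages or for melanoma). Monocytes and C1q macrophages were split by Ly6c2, Chil3, Plac8 and Ccr2 against C1qa, C1qb, C1qc, Ms4a7 and Mrc1, and 431 cells lay within 1 log2 unit of the split. The 632 kept cells in no gate or 2 lineages entered no comparison. Free RNA was not corrected. Counts were summed per library and type and fitted with edgeR 4.0.16 (R 4.3.3; TMM, filterByExpr, robust quasi-likelihood, Benjamini-Hochberg adjustment over all genes tested at 0.05), with the library as a block for comparisons within libraries. Standard errors are the log2 change divided by the square root of its F. DESeq2 1.42.0 was an alternative, beside RLE scaling, no filter, calling cells at 1 or 3 UMIs of Mki67 and Top2a, thinning (seed 1), stricter gates, no doublet removal, no block, scaling to total counts only (added after seeing the data) and leaving out each library. Shares were compared with exact tests (scipy 1.17.1). The fits were tested on simulated data.

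Named members come mostly from those called, at most the 12 with the smallest p, or where none was called the 6 with the most UMIs. Some of these are not given, and Mki67 and Top2a are not given in every comparison. Others were picked by their values outside this rule, such as members that did not pass. So were Cenpf in melanoma cells against monocytes and macrophages and Nusap1 in cycling C1q macrophages, each the largest change among the members. From the other lists at most 6 called genes each are given, beside the D-type cyclins and Cdkn1a that were lower in cycling cells. For monocytes and macrophages combined between groups, and for the difference of group effects, counts alone are given. The members and lists were chosen with earlier results of these data known.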

Additional observations from a re-analysis of the deposited data

How the results depend on the processing

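Counting at least 1 UMI turned the monocytes' share difference from -0.819 to 2.99 points, and thinning turned that of C1q macrophages from -1.75 to 0.0440. The difference in melanoma cells was -1.62 points with at least 1 UMI, -3.63 without overlap with at least 3 and -1.25 after thinning, and that of all monocytes and macrophages was -1.39 with at least 1 UMI and -0.582 after thinning. Leaving out each library gave -6.06 to 0.537 for all monocytes and macrophages, -5.97 to 2.46 for C1q macrophages and -1.78 to 0.143 for monocytes; S3 reversed each, and S2 that of C1q macrophages. Thinning cut the melanoma members called in cycling cells from 39 to 12, and DESeq2 and leave-one-out fits gave 34 and 31 to 38. Regulatory against CD8 T cells gave 10 members with no filter, 2 with DESeq2, 2 with total-count scaling and 2 to 4 leaving out libraries.

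Named genes changed sign only between groups or in regulatory T cells, with estimates that did not pass the test, except Gins2 of melanoma cells against monocytes and macrophages (0.0568 with total-count scaling). With DESeq2 monocyte Pcna was 0.00343 and Ube2c 0.0202 (0.000327 with no filter, 0.240 with stricter gates), and Gins2 was 0.137 with stricter gates. Melanoma Cenpa was -0.00308 with doublets kept, and Mki67 in regulatory T cells -0.0391 with no filter. Leaving out libraries, CD8 T cells gave Dut -0.0559 to 0.0365, Cenpa -0.129 to 0.0167, Ube2c -0.129 to 0.00150, Birc5 -0.0115 to 0.0646, Top2a -0.0603 to 0.0272, Ccnb2 -0.0657 to 0.181 and Mki67 -0.0385 to 0.238. Monocytes gave Pcna -0.294 to 0.315, Gins2 -0.568 to 0.694, Birc5 -1.44 to 0.0445, Ube2c -0.439 to 0.579 and Top2a -0.474 to 1.52. C1q macrophages gave Birc5 -0.469 to 0.368, Cenpa -0.365 to 0.351, Ube2c -0.908 to 0.352, Dut -0.0693 to 0.287, Top2a -0.643 to 0.310, Cdk1 -0.851 to 0.207 and Mki67 -0.752 to 0.158. Melanoma cells gave Cenpa -0.0161 to 0.0195, Birc5 -0.00412 to 0.0433, Dut -0.0337 to 0.0790, Top2a -0.163 to 0.154 and Cenpf -0.122 to 0.262, and regulatory T cells Mki67 -0.0372 to 0.146 and Top2a -0.310 to 0.110. Total-count scaling gave Dut 0.0286 and Top2a 0.0253 in CD8 T cells, Pcna 0.00789 and Ube2c 0.0131 in monocytes and Top2a 0.0234 in regulatory T cells. The cause of these changes was not tested.

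Without the library as a block, member calls between cycling and other cells were 38 in CD8 T cells, 40 in C1q macrophages and 39 in melanoma cells, and 43, 3 and 36 between types. Adar1-null and control libraries were not analysed as pairs: the labels name no pairs across the groups, and the barcodes carry no replicate numbers.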

Other observations

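Cells that carried the markers of more than 1 lineage entered no gated type. They made up 4.59%, 4.86%, 3.86% and 4.40% of kept cells in S1 to S4, and 29.2%, 37.2%, 34.7% and 57.9% of them were cycling. In S4 they held 12.5% of all cycling cells and 18.8% of the members' UMIs, against 4.23% to 6.80% and 5.57% to 6.18% in the other libraries. S4 is the high library of its group in each of these values, and it is also the library with the lowest share of gated melanoma cells. A cell with melanoma markers and at least 20 monocyte and macrophage marker UMIs was left out of the melanoma gate. The cycling cells of more than 1 lineage had medians of 21515, 16510, 25320 and 34991.5 UMIs. Those of cycling melanoma cells were 29885, 33486, 34407 and 34993. How many of the cells left out were melanoma cells was not tested.

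Rare stromal and lymphoid cells added few cycling cells. Of 39 T cells with neither CD8 nor regulatory markers 7 cycled, and of 11 endothelial cells 2 did. Fibroblasts cycled at 3 of 5 cells in S1, 2 of 13 in S2, 3 of 8 in S3 and 0 of 19 in S4.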
